A study of Mus musculus with 23 samples.

Results

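The 10 genes that encode immunosuppressive mediators of mesenchymal stem cells (MSCs) and are described here across 23 RNA-seq libraries are 10 of the 23284 genes in the deposited expression table. They were chosen by name, as mediators by which MSCs are known to restrain T cells and macrophages: the galectins Lgals1, Lgals3 and Lgals9, the prostaglandin enzymes Ptgs1, Ptgs2 and Ptges, the enzymes Nos2 and Ido1, and the surface proteins Cd274 and Cd200. The libraries came from 16 single bone marrow-derived mouse MSCs (mMSC1 to mMSC16), 5 single HL-1 cardiomyocytes (HL1cm1 to HL1cm5) and 1 population control (PC) of many pooled cells of each kind, mMSC-PC and HL1cm-PC. The mMSCs were purchased, had been isolated from the bone marrow of male C57BL mice aged 3 months, and were used at passages 6 to 11. HL1cm is an established line of mouse atrial muscle cells, labelled with the strain C57BL/6J as the mMSCs were, and was used at passages 70 to 85 as a control outside the mesenchymal lineage. All cells were grown in culture, and no treatment with a cytokine is named for any of them. Single cells of both kinds were captured and amplified on the same microfluidic device, where a green dye in the cytoplasm marked the HL1cm. No source names more than 1 culture per cell type, so each cell type counts as 1 sample and no test between cell types was made.

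MSCs act on immune cells through secreted and surface molecules. Galectins are secreted lectins that bind sugar chains on T cells and can trigger their death. Cyclooxygenases turn arachidonic acid into prostaglandin H2, from which prostaglandin E synthases make prostaglandin E2, a lipid that dampens T cells and shifts macrophages towards an anti-inflammatory state. Inducible nitric oxide synthase (Nos2) and indoleamine 2,3-dioxygenase (Ido1) act by releasing nitric oxide and by using up tryptophan, and the first is the route best known in mouse MSCs and the second in human MSCs. Both are switched on by interferon gamma with other cytokines, as is Cd274.

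Values are FPKM, fragments normalised to transcript length in kilobases and to mapped fragments in the library. The table holds no fragment counts, so how many fragments lie behind a value is not known from it. Single mMSC libraries held between 5178 and 7241 genes at 1 FPKM or more, single HL1cm libraries between 6428 and 7010, mMSC-PC 9625 and HL1cm-PC 9881. The lowest numbers were those of mMSC9 (5178 genes) and mMSC15 (5837 genes), the libraries with the fewest aligned read pairs in the study's alignment statistics. A value of 0 is given below as listed at 0, because the table also lists Canx, a chaperone that every cell uses, at 0 in mMSC12. Both labelled cell types were checked against their markers. Of 9 mesenchymal markers, 7 were above 0 in all mMSCs and Thy1 was listed at 0 in all of them, and 10 cardiomyocyte markers summed to at most 65.4 FPKM in an mMSC against at least 32772 FPKM in an HL1cm. Of 12 macrophage markers, 6 were listed at 0 in all mMSCs, among them Ptprc, Lyz2 and Aif1. Cd14 was above 0 in 15 mMSCs with a median of 62.5 FPKM and Csf1r in 8, and both were listed at 0 in all HL1cm. The marker sum lay between 3.10 and 369 FPKM in the mMSCs, and the highest value was that of mMSC15, where Cd14 stood at 337 FPKM. Lymphocyte markers summed to at most 1.56 FPKM and endothelial markers to at most 10.8 FPKM in an mMSC.

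Promoter sequence is shown for 3 members on which the results turn: Lgals9 and Ptgs2, which were above 0 in every mMSC, and Ptgs1, which catalyses the same step as Ptgs2 and was not. Each run is the 250 bases before the RefSeq start of the gene, read 5′ to 3′ on the gene's strand (mouse build GRCm38.p6), at chr11:78984925-78985174 on the minus strand for Lgals9, chr1:150099781-150100030 on the plus strand for Ptgs2 and chr2:36230176-36230425 on the plus strand for Ptgs1. Capitals mark matches to the motifs given next.
Lgals9: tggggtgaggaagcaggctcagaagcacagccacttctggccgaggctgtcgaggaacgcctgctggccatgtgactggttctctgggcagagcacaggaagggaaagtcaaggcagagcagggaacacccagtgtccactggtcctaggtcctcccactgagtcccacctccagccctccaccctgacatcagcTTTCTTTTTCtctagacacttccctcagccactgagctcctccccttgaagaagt
Ptgs2: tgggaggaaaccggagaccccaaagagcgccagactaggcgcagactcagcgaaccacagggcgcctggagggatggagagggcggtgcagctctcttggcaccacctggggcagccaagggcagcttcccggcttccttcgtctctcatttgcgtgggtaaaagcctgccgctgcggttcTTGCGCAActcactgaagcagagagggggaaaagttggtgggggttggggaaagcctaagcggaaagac
Ptgs1: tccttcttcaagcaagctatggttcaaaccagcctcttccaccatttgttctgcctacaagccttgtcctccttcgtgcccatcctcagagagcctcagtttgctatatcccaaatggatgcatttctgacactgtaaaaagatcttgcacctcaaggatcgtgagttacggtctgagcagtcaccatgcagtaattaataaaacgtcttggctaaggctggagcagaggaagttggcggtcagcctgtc

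G and C made up 58.4% of the Lgals9 run, 61.6% of the Ptgs2 run and 48% of the Ptgs1 run, against a median of 52.4% over all promoters in the RefSeq table. A set of 6 motifs was searched on both strands in the 300 bases from 250 before to 50 after the start. The search covered 32851 promoters in all and the 7 members matched to them: Lgals3, Lgals9, Ptgs1, Ptgs2, Ptges, Cd274 and Cd200. Lgals1, Nos2 and Ido1 were not matched and so were not searched. The C/EBP palindrome TTGCGCAA was found in 0.183% of all promoters and, among the 7 members searched, in Ptgs2. There it begins 69 bases before the start and overlaps no other motif searched. The interferon-stimulated element, searched as 2 GAAA runs with any 2 bases between them, was found in 3.44% of all promoters. Among the 7 members it was found in Lgals9 with 2 matches. The 1 in the printed run lies on the opposite strand and begins 55 bases before the start. The E-box CACGTG (7.15% of all promoters) was found in Ptgs2 alone among the 7 members, after its start. None of the 7 members searched held the TATA box TATAAA (13.6%) or the gamma-activated site TTCNNNGAA (8.30%). Nor did any of the 7 hold the NF-kB motif, searched as GGG and TTTCC with any 2 bases between them (1.63%). These are matches of letters in 1 window and describe no binding.

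All 3 galectins were above 0 in every mMSC, as were 19.4% of the 11850 genes with 1 FPKM or more in at least 2 of the 21 single cells, and Lgals1 was the highest of the 10 members in each of the 16 cells and in both population controls. Lgals1, the galectin best known for triggering death of activated T cells, lies on the plus strand of chromosome 15 (bases 78926725 to 78930465, build GRCm38, which is mm10). Its FPKM in the mMSCs had a lowest value of 1535 (mMSC13), a median of 2929 and a highest value of 8179 (mMSC9). In HL1cm1 to HL1cm5 it was 772, 993, 762, 357 and 316 FPKM. Every mMSC thus lay above every HL1cm, the lowest mMSC at 1.55 times the highest HL1cm, and the medians differed by 1.94 on the log2 scale, a ratio of 3.84. The log2 difference was 2.75 with every library scaled to the same FPKM sum and 2.82 with FPKM taken over that of Gapdh. By its median FPKM in the mMSCs Lgals1 ranked 20 of 23284 genes. mMSC9 stood apart at the top, since the next highest cell, mMSC16, had 4244 FPKM. The highest cell was 5.33 times the lowest, and without mMSC9 the ratio was 2.77.

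Lgals9, a galectin with a pair of sugar-binding domains that binds the inhibitory receptor Havcr2 on T cells, lies on the minus strand of chromosome 11 (bases 78962974 to 78984946). It ranged from 323 FPKM (mMSC1) through a median of 642 to 1206 FPKM (mMSC2). The 5 HL1cm had 79.0, 37.7, 23.9, 6.78 and 85.2 FPKM. The groups did not overlap: the lowest mMSC was 3.79 times the highest HL1cm, and the medians differed by 4.09 on the log2 scale, a ratio of 17.0. Lgals9 also varied little across the mMSCs when set against genes of any level. The SD of its log2 FPKM over the 16 cells was 0.49, and 8.83% of the 2299 genes above 0 in all mMSCs had a smaller SD. For Lgals1 the SD was 0.56, and 15.1% of those genes had a smaller one. The median SD over those genes was 0.89. Those genes were not matched by level, and by median FPKM in the mMSCs Lgals9 ranked 174 and Lgals1 20 of 23284 genes. Whether their SD differs from that of genes as high was not tested.

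Lgals3, a galectin that macrophages also secrete in quantity, lies on the plus strand of chromosome 14 (bases 47367751 to 47386160). In the mMSCs it ranged from 28.6 FPKM (mMSC8) through a median of 291 to 520 FPKM (mMSC6). HL1cm1 had 31.7 FPKM, HL1cm5 had 8.35 FPKM, and the gene was listed at 0 in HL1cm2, HL1cm3, HL1cm4 and HL1cm-PC. A single cell, mMSC8, made the groups overlap, because it lay below HL1cm1 while the next lowest mMSC, mMSC14, had 157 FPKM. The same cell widened the spread among mMSCs: the highest cell was 18.2 times the lowest, and 3.31 times the second lowest. The SD of log2 FPKM was 0.97, and 56.9% of genes above 0 in all mMSCs had a smaller one. Macrophage marker sums differed between the mMSCs, as given above. The cell with the lowest sum, mMSC2 (3.10 FPKM), had 467 FPKM of Lgals3. The cell with the highest sum, mMSC15 (369 FPKM), had 305 FPKM. The part of those markers in the Lgals3 values was not tested.

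Within each mMSC Lgals1 made up between 60.5% and 89.7% of the summed FPKM of the 3 galectins, with a median of 77.3%. Lgals9 was above Lgals3 in 16 of 16 mMSCs, by a ratio with a lowest value of 1.14, a median of 2.53 and a highest value of 19.6. Among the 8 other galectin genes of the list, 2 were above 0 in all mMSCs and 3 were listed at 0 in all of them (Lgals2, Lgals7 and Lgals12). The 2 were Lgals8, a galectin with a pair of sugar-binding domains, at 11.3 to 175 FPKM (median 55.7), and Lgals3bp, a secreted glycoprotein that binds galectins, at 130 to 451 FPKM (median 271). In addition Lgalsl, a galectin-like protein, was above 0 in 14 mMSCs. Of 9 galectin ligands and receptors, 5 were above 0 in all mMSCs: Cd44, Itgb1, Lamp1, Lamp2 and Cd47, all widely expressed glycoproteins. Havcr2 was above 0 in 4 mMSCs.

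**Figure D1:**
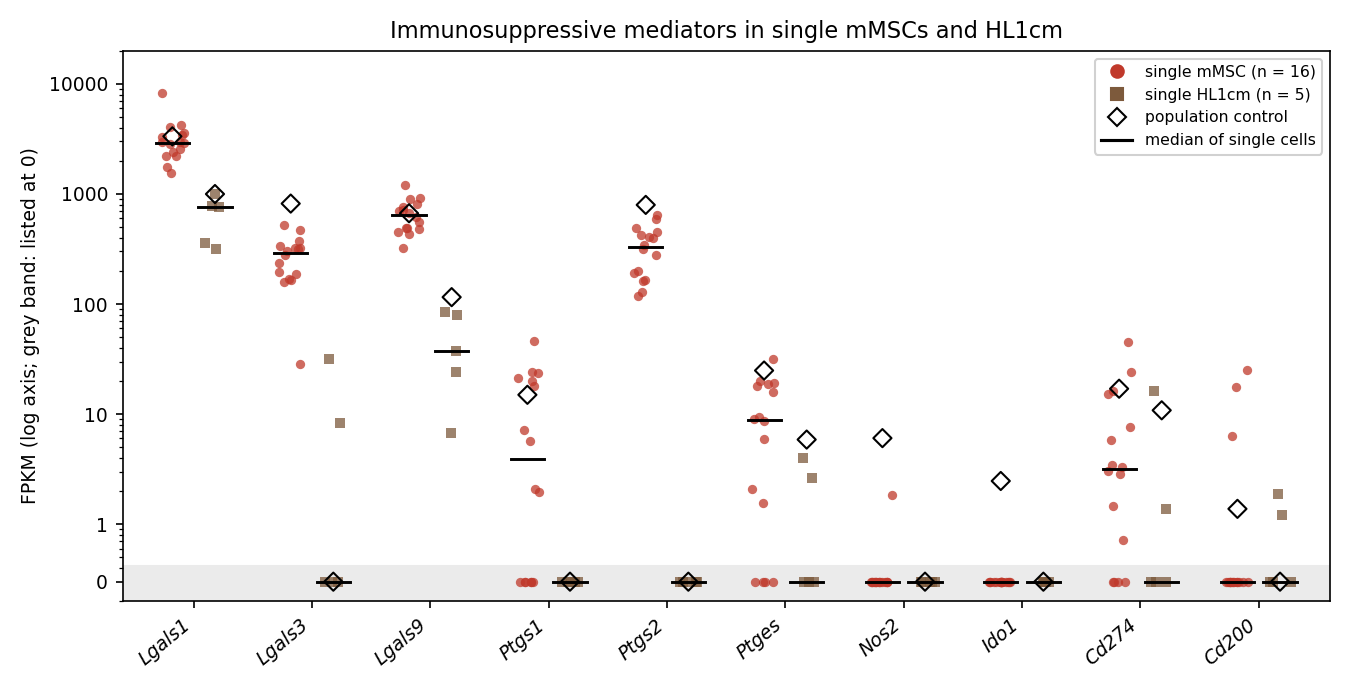
FPKM of each of the 10 members in every library on a log axis, with values listed at 0 in the grey band. Circles are single mMSCs, squares single HL1cm, horizontal lines their medians and diamonds the population controls. Lgals1, Lgals9 and Ptgs2 show no overlap between the 16 mMSCs and the 5 HL1cm, and Lgals3 overlaps only through mMSC8 and HL1cm1.

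The inducible cyclooxygenase and the constitutive one differed in how many mMSCs held them. Ptgs2, the cyclooxygenase that inflammatory signals induce, lies on the plus strand of chromosome 1 (bases 150100031 to 150108227) and was above 0 in 16 of 16 mMSCs. Its lowest value was 119 FPKM (mMSC14), its median 330 FPKM and its highest value 646 FPKM (mMSC11). Every HL-1 library, HL1cm-PC included, listed it at 0, and mMSC-PC had 795 FPKM. Of the 2299 genes above 0 in all mMSCs, 3.09% were likewise listed at 0 in all 6 HL-1 libraries. The highest mMSC was 5.45 times the lowest, and the SD of log2 FPKM was 0.79, with 38.8% of those genes having a smaller one.

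Ptgs1, the cyclooxygenase that most tissues express without induction, lies on the plus strand of chromosome 2 (bases 36230426 to 36252272). It was above 0 in 10 of 16 mMSCs, or 62.5% of cells (exact Clopper-Pearson 95% interval 35.4% to 84.8%, which like every interval here covers counting error only). It was listed at 0 in mMSC1, mMSC4, mMSC7, mMSC8, mMSC10 and mMSC15, and in all HL-1 libraries. In the 10 cells it ran from 1.95 to 45.7 FPKM (mMSC9), with a median of 19.1 FPKM. Ptgs2 exceeded Ptgs1 in 16 of 16 mMSCs, and where both were above 0 the ratio within a cell had a lowest value of 6.09, a median of 24.3 and a highest value of 234. A transcript of uncertain coding status, Gm43621, overlaps Ptgs1 on the opposite strand, and strand is not stated to have been used in the alignment.

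Ptges, the inducible prostaglandin E synthase that works with Ptgs2, lies on the minus strand of chromosome 2 (bases 30889471 to 30929863). A processed pseudogene, Gm13400, overlaps it on the same strand. Ptges was above 0 in 12 of 16 mMSCs (75%, exact interval 47.6% to 92.7%) and listed at 0 in mMSC2, mMSC3, mMSC4 and mMSC6. In the 12 cells it ran from 1.56 FPKM (mMSC14) to 31.3 FPKM (mMSC12), with a median of 12.6 FPKM. HL1cm1 had 3.97 FPKM, HL1cm5 had 2.62 FPKM and HL1cm-PC 5.87 FPKM, so low values were present in both cell types. Of the 2 enzymes that vary between cells, Ptgs1 and Ptges were both above 0 in 7 mMSCs, Ptgs1 alone in 3, Ptges alone in 5 and neither in 1, mMSC4.

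The other genes of prostanoid release and synthesis numbered 9, of which 2 were above 0 in all mMSCs. Pla2g4a, the phospholipase that frees arachidonic acid from membranes, ranged from 31.3 FPKM through a median of 84.6 to 330 FPKM in the mMSCs and was listed at 0 in all HL1cm. Ptges3, a co-chaperone that also has prostaglandin E synthase activity, ranged from 1562 through a median of 2815 to 3925 FPKM, while HL1cm had 973 to 1981 FPKM and mMSC-PC 662 FPKM, below every single mMSC. Ptges2, a membrane-bound prostaglandin E synthase, was above 0 in 9 mMSCs, with its highest value of 46.0 FPKM in mMSC12. With it, 14 of 16 mMSCs held Ptges, Ptges2 or both. Pla2g4a, Ptgs2 and Ptges3 were thus above 0 together in every mMSC, whereas the other prostaglandin E synthases were both listed at 0 in 2 cells. The opposite pattern was that of Ptgds, which makes prostaglandin D2: it was listed at 0 in all mMSCs and at 14.6 to 236 FPKM in the HL1cm. Synthases of thromboxane (Tbxas1) and prostacyclin (Ptgis) were above 0 in 0 and 1 mMSCs.

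**Figure D2:**
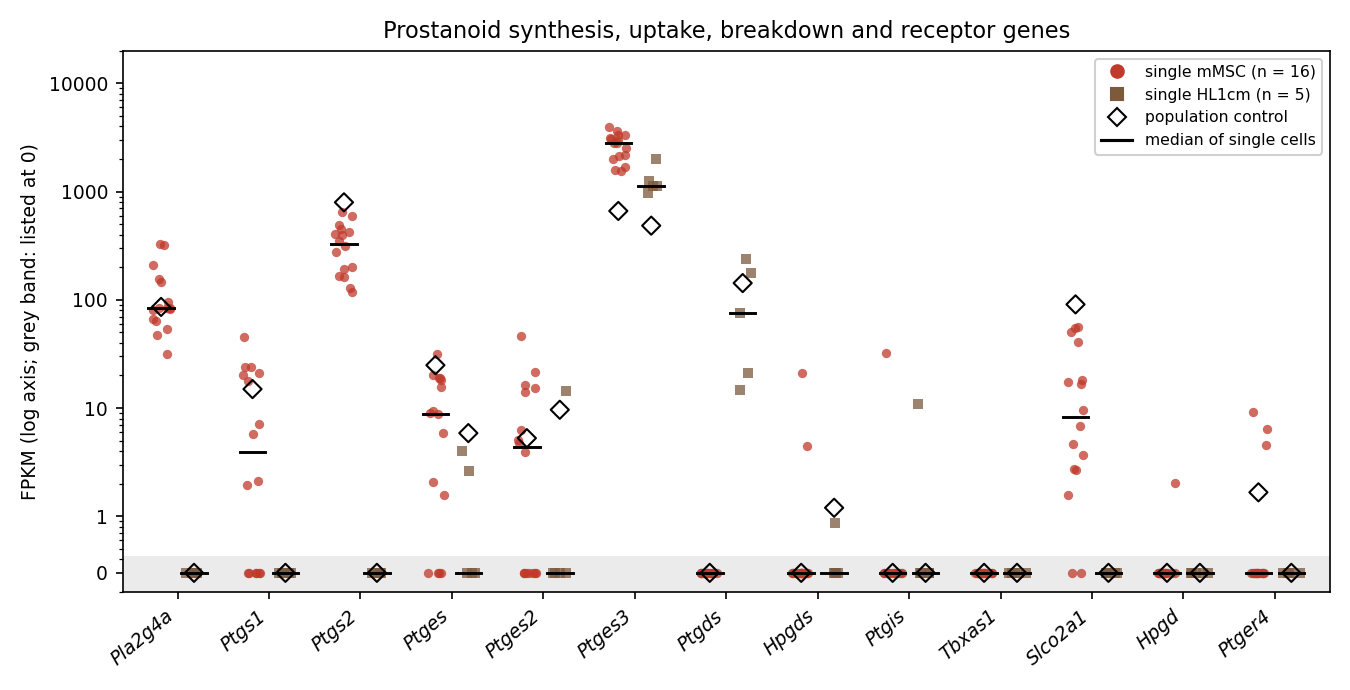
FPKM of 13 genes of prostanoid release, synthesis, uptake, breakdown and reception in every library on a log axis, with values listed at 0 in the grey band. Circles are single mMSCs, squares single HL1cm, lines their medians and diamonds the population controls. All 16 mMSCs lie above the band for Pla2g4a, Ptgs2 and Ptges3, 10 for Ptgs1 and 12 for Ptges, and for Ptgds the HL1cm lie above it and the mMSCs do not.

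Among 11 genes of prostanoid transport, breakdown and reception, none was above 0 in all mMSCs. Slco2a1, the carrier that takes prostaglandins into cells, was above 0 in 14 mMSCs with a highest value of 55.9 FPKM and was listed at 0 in all HL1cm. Abcc4, an export pump for prostaglandin E2, was above 0 in 12 mMSCs with a median of 1.64 FPKM, below the HL1cm median of 7.03 FPKM. Of the receptors of prostaglandin E2, Ptger1, Ptger2 and Ptger3 were listed at 0 in all mMSCs and Ptger4 was above 0 in 3, and Hpgd, which inactivates prostaglandin E2, was above 0 in 1.

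The enzymes best known as interferon-induced effectors of MSCs had 1 value above 0 between them in the 16 single mMSCs, and both had values in mMSC-PC. Nos2 lies on the plus strand of chromosome 11 (bases 78920787 to 78960254), tail to tail with Lgals9 and 2719 bases away from it. It was above 0 in 1 of 16 mMSCs, mMSC12, at 1.84 FPKM (6.25% of cells, exact interval 0.158% to 30.2%) and listed at 0 in every HL-1 library. Ido1, on the minus strand of chromosome 8 (bases 24584136 to 24597009), was listed at 0 in 16 of 16 mMSCs and in all HL-1 libraries. A count of 0 in 16 allows a share of up to 18.8% of cells with a listed value (3 cells of 16), and sets no limit on cells that express the gene below detection. In mMSC-PC Nos2 was at 6.04 FPKM and Ido1 at 2.47 FPKM. Ido1 was therefore 1 of 362 genes, 1.55% of the table, that were above 0 in mMSC-PC and listed at 0 in all single mMSCs.

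Genes around these enzymes ranged from listed at 0 throughout to above 0 in most mMSCs. Of 13 other genes of nitric oxide and arginine use, none was above 0 in all mMSCs, 4 were in at least 8 and 5 were listed at 0 in all of them. Asl, which makes arginine, was above 0 in 14 mMSCs with a median of 18.5 FPKM, Slc7a1, an arginine carrier, in 13, and Pts, an enzyme that makes a cofactor of the synthases, in 11. The other nitric oxide synthases Nos1 and Nos3 were listed at 0 in all of them. Ass1, which regenerates arginine, was above 0 in 13 mMSCs but at 1 FPKM or more in 3. Gucy1a3, a subunit of the nitric oxide receptor, was listed at 0 in all mMSCs and stood at 13.7 to 87.7 FPKM in the HL1cm. Of 8 other genes of tryptophan use, 5 were listed at 0 in all mMSCs (Ido2, Tdo2, Kynu, Kmo and Haao), and Wars, the tryptophanyl-tRNA synthetase, was above 0 in 14.

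The surface ligands were present in part of the mMSCs. Cd274 (PD-L1), the ligand of the T-cell inhibitory receptor Pdcd1, lies on the plus strand of chromosome 19 (bases 29367455 to 29388095). It was above 0 in 12 of 16 mMSCs (75%, exact interval 47.6% to 92.7%) and listed at 0 in mMSC7, mMSC9, mMSC10 and mMSC14. In those 12 cells it ran from 0.717 FPKM (mMSC4) to 45.3 FPKM (mMSC15), and 4 cells reached 10 FPKM. mMSC15 stood highest, ahead of mMSC6 with 24.1 FPKM, and it was also the cell with the highest Cd14, with the highest Csf1r (32.6 FPKM) and with few aligned read pairs. Ptprc, Lyz2 and Aif1 were listed at 0 in it as in the others. The part of those markers in the Cd274 value was not tested. HL1cm4 had 16.3 FPKM and HL1cm5 1.37 FPKM, the gene was listed at 0 in the other 3 HL1cm, and HL1cm-PC had 10.8 FPKM. Cd274 thus overlapped between the cell types. The antisense gene AC119228.1 overlaps it, and without strand its reads cannot be told apart from those of Cd274.

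Cd200, a surface glycoprotein whose receptor Cd200r1 quiets myeloid cells, lies on the minus strand of chromosome 16 (bases 45382135 to 45409053). It was above 0 in 3 of 16 mMSCs (18.8%, exact interval 4.05% to 45.6%), at 17.6 FPKM in mMSC3, 25.0 FPKM in mMSC6 and 6.38 FPKM in mMSC9. HL1cm3 had 1.90 FPKM and HL1cm4 1.22 FPKM, so this gene overlapped as well. All 3 mMSCs with Cd200 also held Ptgs1, which was above 0 in 10 of 16 mMSCs, and 2 of them held Cd274, above 0 in 12 of 16. Of 12 other surface ligands and receptors, Cd47, the signal that protects cells from phagocytosis, was the 1 above 0 in all mMSCs. Cd80, which binds T-cell costimulatory and inhibitory receptors as well as Cd274, was above 0 in 10 mMSCs with a highest value of 121 FPKM in mMSC4, and in 7 of them together with Cd274. Pdcd1lg2, the second ligand of Pdcd1, was listed at 0 in all mMSCs, as were Pdcd1 and Cd200r1.

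To see how the members differed between the cell types as a group, medians of log2 FPKM with values under 1 set to 1 were compared, and a difference over 1 (a ratio of 2) was counted. In all, 8 members passed the filter of 1 FPKM in at least 2 of the 21 single cells, and Nos2 and Ido1 did not. Of the 10 members, 7 were more than 1 higher in mMSCs, where 21.3% of the 11850 genes that passed were, and none was more than 1 higher in HL1cm, where 21.9% were. Ptgs1 and Ptgs2, listed at 0 in all 5 HL1cm, passed through the mMSCs alone and could differ in 1 direction only, so their part of the count is a description. In 5 of the 7 (Lgals3, Ptgs1, Ptgs2, Ptges and Cd274) the HL1cm median was at 0, so that no fold can be given. The median difference was 1.87 over all 10 members, 2 of which did not pass, against 0 over the genes that passed and 0.66 over the 2299 genes above 0 in all mMSCs. Every mMSC lay above every HL1cm for 3 members, Lgals1, Lgals9 and Ptgs2, and for 2.26% of the genes that passed. Since a gene must be high in all mMSCs for this, the 2299 genes above 0 in all of them were counted too, of which 11.7% showed no overlap and 40.6% were more than 1 higher in mMSCs. The 4 members of that kind are Lgals1, Lgals3, Lgals9 and Ptgs2, of which Lgals3 overlapped. Ptgs2, listed at 0 in all HL1cm, could not have done otherwise once it was above 0 in all mMSCs. With values under 10 FPKM set to 10, the count of members more than 1 higher in mMSCs dropped from 7 to 4, leaving the 3 galectins and Ptgs2.

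Of the 10 members, 7 were above 0 in at least 8 mMSCs, where 60.1% of the genes that passed were, and 4 in all 16, where 19.4% were. Single mMSCs held between 5 and 8 members above 0, with a median of 6.5. There were 3 cells that held 5, 5 cells held 6, 7 cells held 7, and mMSC12 held 8, every member but Ido1 and Cd200. HL1cm held between 2 and 5, and HL1cm-PC 4. The order of levels per length was steady at the top. Lgals1 was above Lgals9 in all 16 mMSCs, and the ranges of these 2 genes did not meet. Lgals9 was above Ptgs2 in 14 cells, the exceptions being mMSC8 and mMSC11. Ptgs2 and Lgals3, whose medians of 330 and 291 FPKM are neighbours, did not separate, since Ptgs2 was the higher in 9 cells of 16. Lgals3 was above Ptges in all 16 cells. Below that, Ptges, Ptgs1 and Cd274 did not separate either: Ptges was above Ptgs1 in 8 cells and Ptgs1 above Cd274 in 7.

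**Figure D3:**
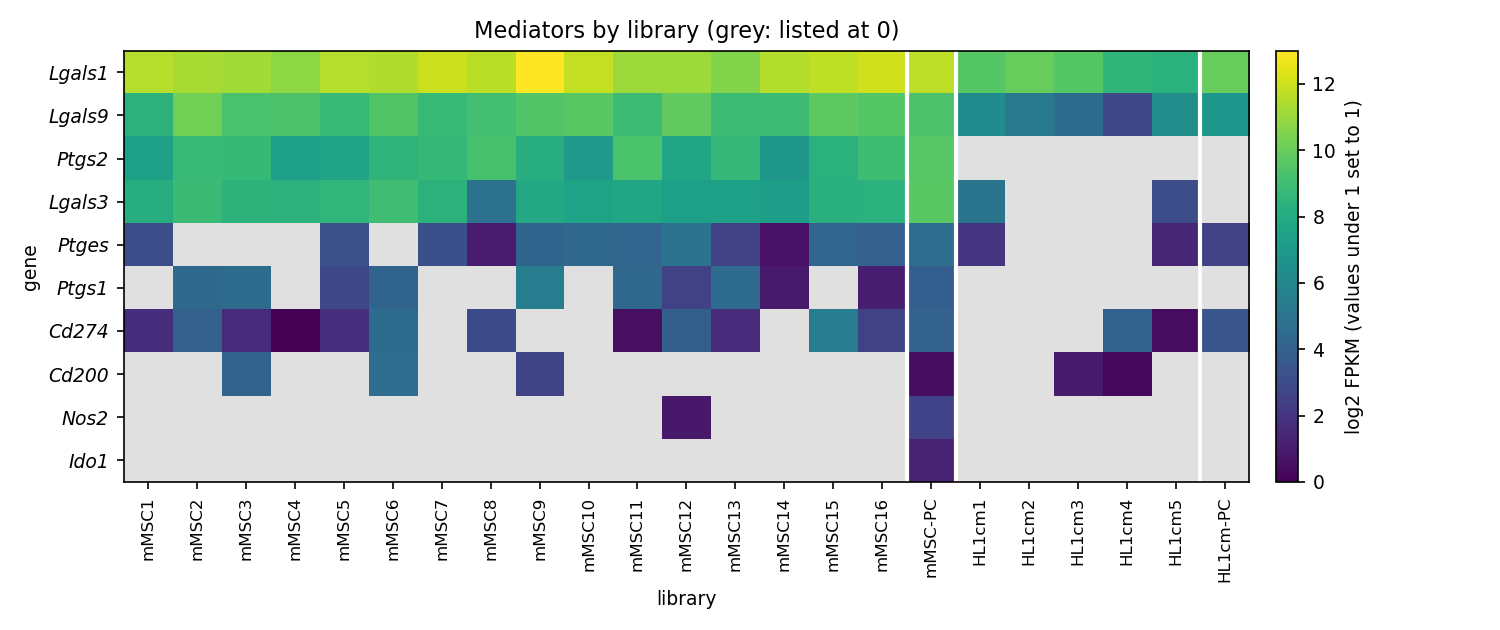
Members (rows) by library (columns), coloured by log2 FPKM with values under 1 set to 1, grey where listed at 0. The 3 galectins and Ptgs2 are coloured in all 16 mMSC columns, Ptgs1, Ptges and Cd274 in differing subsets, Cd200 in 3, Nos2 in 1 and Ido1 in none, and all 10 rows are coloured in mMSC-PC.

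The 4 members present in every mMSC did not track each other. Across the 16 cells the 6 Pearson correlations of log2 FPKM among Lgals1, Lgals3, Lgals9 and Ptgs2 lay between −0.12 and 0.17. Lgals1 was correlated with the number of genes in a library at −0.57, and without mMSC9 and mMSC15 at 0.19, so the value rested on those cells. For Lgals9 the same correlation was −0.35, and −0.36 without those cells. For Lgals3 and Ptgs2 it was −0.03 and −0.04. The sparser members were combined in various ways. Ptges and Cd274 were each above 0 in 12 cells, and each mMSC held Ptges, Cd274 or both, with both in 8 cells. The 1 cell with Nos2, mMSC12, was also the highest in Ptges. Such pairs were picked from several and were not tested against the share of each gene. These are descriptions over single cells counted as 1 sample, amplified on 1 device, whose libraries differ in depth.

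The genes whose pattern over the 16 mMSCs was most like that of a member were sought among 4980 genes above 0 in at least 12 of them, by Pearson's r of log2 FPKM. For Lgals1 they were S100a11 (0.86), Nck2 (0.85) and Atp6v0e (0.82). For Lgals3 they were Cuta (0.84), H2-T22 (0.82) and Hcfc1r1 (0.81). For Lgals9 they were 9030624J02Rik (0.78), Gstm2 (0.78) and Gcsh (0.76). No member was among the genes named for another member. For Ptgs2 they were Atp6v1c1 (0.78), Ankib1 (0.76) and Bckdk (0.72), for Ptges they were Sdhc (0.78), Atp2a2 (0.75) and Gadd45b (0.74), and for Cd274 they were Exoc2 (0.73), Lin7c (0.72) and Samhd1 (0.70). The highest of 4980 correlations over 16 points is high by selection, and under other settings between 0 and 3 of the 3 genes stayed.

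The population control held all 10 members above 0, which no single mMSC did. It also held more genes of any kind: 10279 of 23284 were above 0 in mMSC-PC, against 5198 (mMSC9) to 7641 (mMSC5) in single mMSCs. In FPKM mMSC-PC also stood apart from the single cells in level for part of the members. Lgals3 had 817 FPKM in mMSC-PC and Ptgs2 795 FPKM, each above all 16 single mMSCs, which was so for 11% of 2291 genes above 0 in all mMSCs and in mMSC-PC. Against the mean FPKM of the 16 single cells, mMSC-PC was 2.98 times as high for Lgals3, 2.39 for Ptgs2, 2.49 for Ptges, 2.11 for Cd274 and 1.41 for Ptgs1. The ratio for Nos2 was 52.7, and 23.9 over Gapdh, and rests on 1 cell with 1.84 FPKM. With the median of the single cells in place of the mean, the log2 ratio went from 0.50 to 1.93 for Ptgs1 and from 1.08 to 2.42 for Cd274. Lgals1 (3337 FPKM) and Lgals9 (668 FPKM) were near the single-cell mean, at 1.05 and 1.02 times. Cd200 was lower, at 0.450 times the mean and 1.38 FPKM. Over those 2291 genes the median log2 ratio of mMSC-PC to the mean was −0.23, and 41.4% lay above the mean, as did all 4 members among them. Gapdh itself was 2.60 times as high in mMSC-PC as in the mean single mMSC. With FPKM taken over Gapdh, an alternative chosen after seeing the data, the ratio to the single-cell mean was 1.08 for Lgals3, 1.04 for Ptges, 0.891 for Ptgs2, 0.822 for Cd274, 0.480 for Ptgs1, 0.391 for Lgals1 and 0.374 for Lgals9, while its median over the 2291 genes was 0.317. The direction for Ptgs2, Cd274, Ptgs1, Lgals1 and Lgals9 thus depended on the scaling. Each library was divided by its own Gapdh, which lowered the ratio for every member that has one, but not by 1 common factor. It went from 52.7 to 23.9 for Nos2 and from 0.450 to 0.135 for Cd200. The flips are not read as a result about the members. Ido1, with a single-cell mean of 0, has no ratio, and the other members except Cd200 stayed above the median of 0.317. In a pooled library fewer cells of a type and less RNA per cell cannot be told apart, and there was 1 such library of each cell type. HL1cm-PC had 998 FPKM of Lgals1, 115 of Lgals9, 10.8 of Cd274 and 5.87 of Ptges, and the other members were listed at 0 in it.

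**Figure D4:**
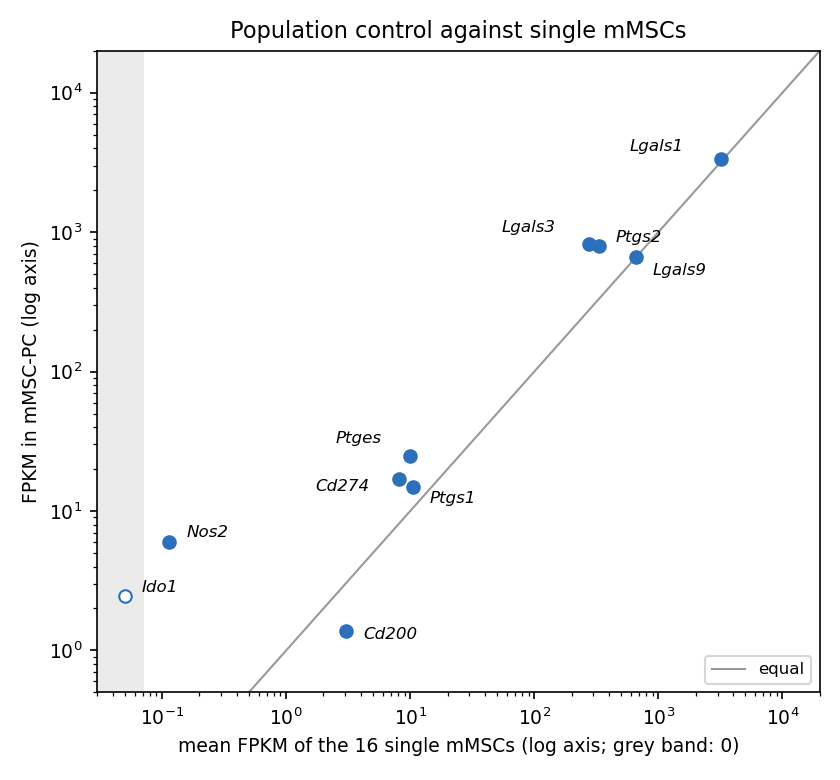
FPKM in mMSC-PC against the mean FPKM of the 16 single mMSCs for each member, on log axes and as deposited, with the line marking equal values and the grey band a single-cell mean of 0 (Ido1, open circle). Lgals1 and Lgals9 lie near the line (1.05 and 1.02 times), Lgals3 and Ptgs2 above it (2.98 and 2.39 times) and Cd200 below it (0.450 times). Gapdh was 2.60 times as high in mMSC-PC as in the mean single mMSC. Over Gapdh, Lgals1, Lgals9, Ptgs1, Ptgs2 and Cd274 would fall below the line but stay above the median of 0.317 over 2291 genes.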

How the data were processed

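Single-cell RNA was amplified with SMARTer chemistry on a Fluidigm C1 device, with bulk RNA controls in parallel, and libraries were made with Nextera XT. The authors imaged the captured cells, aligned read pairs to mouse mm10 with TopHat2 2.0.12 and computed FPKM per gene with Cufflinks 2.2.1, per the methods and the submitters' processing notes. The deposited FPKM are normalised to fragments mapped and transcript length, and hold no counts, so no count model was used and the number of fragments behind a value is not known. Read pairs per library, from the study's alignment statistics, served only to pick the shallow libraries left out in 1 alternative. All 23 columns were matched to labelled samples, and no 2 libraries held identical values.

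Levels were compared as log2 FPKM with values under 1 FPKM, the authors' limit of detection, set to 1, so differences of low genes are understated. Fits across genes and p-values were not used, because each cell type is 1 sample. Shares of cells above 0 carry exact Clopper-Pearson 95% intervals. For a share of 0 the limit given is instead 3 cells of the total. Both concern listed values, not the share of cells that express a gene. A background gene had 1 FPKM or more in at least 2 of the 21 single cells. All 10 members are named, along with genes of pathway lists that share a member's step, family or binding partner or that were above 0 in at least 8 mMSCs, and for members above 0 in at least 12 mMSCs the 3 genes of highest r. The members and lists were chosen with earlier results of these data known. Gene positions are from GENCODE M21 (GRCm38) and promoters from RefSeq (GRCm38.p6). Lgals1, Nos2 and Ido1 were not matched there. Computation used Python 3.11.15, numpy 2.4.6, pandas 2.3.3 and scipy 1.17.1, and the scripts were tested on simulated data. Alternatives were another scale, floor, scaling, group summary and limit of detection, and leaving out libraries.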

Additional observations from a re-analysis of the deposited data

Results flagged for a closer look

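Of the 6 members whose values differed among the 5 HL1cm, 1 had a cell far from the rest. Cd274 was at 16.3 FPKM in HL1cm4, at 1.37 FPKM in HL1cm5 and listed at 0 in HL1cm1, HL1cm2 and HL1cm3. On the log2 scale the gap from HL1cm4 to the nearest cell was 0.888 of the whole range, above the critical value of 0.71 for 5 samples, which chance passes in about 1 in 20 groups of independent samples. These are 5 single cells of 1 cell type with 3 listed at 0, so the comparison with that value is a description and not a test. HL1cm-PC had 10.8 FPKM of Cd274.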

How the results depend on the processing

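No member whose medians differed between mMSCs and HL1cm changed sign under any of the alternatives. With values under 10 FPKM set to 10, 4 members in place of 7 were more than 1 higher in mMSCs and the median difference over the 10 members was 0 in place of 1.87, since this floor lies above most values of Ptgs1, Ptges and Cd274. At 10 FPKM or more, 4 members in place of 7 were found in at least 8 mMSCs. Leaving out 1 HL1cm at a time kept 7 members higher (7 to 7), and gave 3 to 4 members with no overlap and a median difference of 1.86 to 2.14. The count of 4 was that without HL1cm1, and FPKM over Gapdh also gave 4. The Lgals1 difference ran from 1.86 to 2.82 and that of Lgals9 from 3.55 to 4.50 (3.55 without HL1cm3 or HL1cm4). The Lgals3 difference ran from 4.86 to 8.21 (6.65 without HL1cm2, HL1cm3 or HL1cm4) and that of Ptgs2 from 5.04 to 8.54. For Lgals3 and Ptgs2 the median over all HL1cm was at 0, so their differences depend on the floor and give no fold. Their low ends, 4.86 and 5.04, are those with values under 10 FPKM set to 10. Leaving out mMSC9 and mMSC15, scaling by the median ratio or taking log2(FPKM + 1) changed none of the member counts by more than 1.5 times. FPKM over Gapdh was added after seeing the data. It lowered the log2 ratio of mMSC-PC to the single-cell mean for every member that has one, by differing amounts. The median over 2291 genes moved from −0.23 to −1.66. The ratio changed sign to −1.35 for Lgals1, −1.42 for Lgals9, −1.06 for Ptgs1, −0.17 for Ptgs2 and −0.28 for Cd274. These sign changes depend on the scaling and are not read as a result about the members. The most-like genes changed under other settings, with 0 to 3 of 3 kept per member. No paired analysis was possible because the numbers that mMSC and HL1cm share belong to single cells of different cultures and no test was made. Without fragment counts, a value listed at 0 cannot be told from one below detection.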

Other observations

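Of 11 genes listed for the route by which interferon gamma and NF-kB induce Nos2, Ido1 and Cd274, 4 were above 0 in all 16 mMSCs and 10 in at least 8, and Ifng was listed at 0 in all. Over genes with 1 FPKM or more in at least 2 single cells the shares were 19.4% and 60.1%. Jak2 and Nfkb1 were low, with medians of 1.19 and 2.35 FPKM in the mMSCs. Ifngr1, the ligand-binding receptor chain, had a median of 50.6 FPKM in the mMSCs and was above 0 in 2 HL1cm. Ifngr2, the second chain, had a median of 21.2 FPKM in the mMSCs and of 80.0 FPKM in the HL1cm, the reverse order. Irf1, an interferon-induced transcription factor, was above 0 in 11 mMSCs.

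Among 13 other factors known for immune suppression, 3 were above 0 in all mMSCs (Ccl2, Csf1 and Vegfa), a share near the 19.4% over all genes tested. Ccl2, a chemokine for monocytes, ranged from 393 FPKM through a median of 1041 to 14527 FPKM in mMSC10, and stood at 9.16 FPKM in 1 HL1cm and at 0 in the other 4. Csf1, the growth factor of macrophages, ranged from 71.6 through a median of 183 to 595 FPKM and reached at most 31.0 FPKM in the HL1cm. Hmox1, which degrades heme, was above 0 in 15 mMSCs, Il6 in 9 and Tnfaip6 in 4. mMSC10 was the highest cell in Ccl2, Csf1 and Hmox1, while Ptgs1 and Cd274 were listed at 0 in it. Its macrophage marker sum of 230 FPKM was below only that of mMSC15 (369 FPKM, of which Cd14 made up 337 FPKM). In mMSC10, as in all mMSCs, 6 of the 12 macrophage markers were listed at 0, among them Ptprc, Lyz2 and Aif1. The part of those markers in the values of mMSC10 was not tested. Tgfb1, Il10 and Hgf were listed at 0 in all mMSCs.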
